A study of Ciona robusta with 6 samples.

Results

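The genes described here were those that the deposited table lists as dnal1, ci-rsp9, ci-rsp4/6, lrr37, tektinA1, tektinB1, s-themis-a, s-themis-b and dlc, 9 of the 793 genes in the table. All 9 were tested without a filter on low values. They were chosen by symbol, as genes of the axoneme or of sperm, at a time when the higher level of most of them in the stomach blood sinus, and their shared shift between its 2 libraries, were already known. Comparisons of the stomach blood sinus with the other heart parts, and of its libraries with each other, are therefore given as descriptions, and where the fit's calls are counted in them the count supports nothing.

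RNA was sequenced from the heart of wild-caught adult Ciona robusta, a tunicate whose heart is a single muscular tube with a blood sinus at each end. The groups were the stomach blood sinus (SS), the pharyngeal blood sinus (PS) and the central cardiac tube (C), with 2 libraries each and 6 in all. A library pooled the same part of many hearts, freed of pericardium. As dissected, SS and PS also held a little heart tube muscle, so neither is a pure sinus sample. None of the sources states whether same-numbered libraries of different parts came from the same hearts, and what separates the 2 replicates of a part is not stated either, so that p-values measure only the spread between these libraries. Levels are given in FPKM, adjusted reads scaled for gene length and library size, which allows levels of different genes to be set side by side. Heart muscle genes were present in every library, and their summed level was 65166 and 67052 FPKM in SS, 53381 and 48154 FPKM in PS, and 121624 and 128967 FPKM in C. Most of each sum came from a single gene, if-a, so the sum is no measure of heart muscle as a whole. If-a measured 56125 and 57531 FPKM in SS, 45180 and 39726 FPKM in PS, and 110117 and 118307 FPKM in C. Every other gene of that list differed by a smaller factor between the parts.

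The methods describe a correction for 1 factor of unwanted variation, and the deposited values carry a tie between replicates that bears on every statement about them. In the 179 genes with a mean above 1000 adjusted reads, replicate 2 minus replicate 1 in natural logarithms, weighted by 0.554 in SS, 0.531 in PS and 0.641 in C, summed to no more than 0.000688 in size for any gene, where the median size of a difference was 0.0835. Of the 9 genes, 8 had a weighted sum no larger than 0.0328 in size (dnal1). The exception was dlc, at 0.213 where its own SS difference was -0.0702, so the tie is not seen in that gene of few reads. Where the tie holds, a gene that is higher in SS replicate 2 than in SS replicate 1 runs the other way in PS, in C or in both. The replicate differences of the 3 parts are not independent of each other.

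The axoneme is the microtubule core of motile cilia and of the sperm tail. Dynein arms on its outer doublets drive bending, radial spokes reach from the doublets toward the central pair and regulate the dyneins, and tektins are filament proteins that stiffen the doublets. Ascidians such as Ciona carry motile cilia on several epithelia, including the gill slits and the gut, and as hermaphrodites they also make flagellated sperm. Of the 9 genes, dnal1 takes its name from an axonemal dynein light chain, ci-rsp9 and ci-rsp4/6 from proteins of the radial spoke head, lrr37 from a leucine-rich repeat protein of the Ciona radial spoke, and tektinA1 and tektinB1 from tektins. The genes s-themis-a and s-themis-b encode the sperm-side receptors of the Ciona self-sterility system, by which eggs refuse sperm of the same animal. The symbol dlc is used for dynein light chains, but the table gives no fuller name, and its role is left undetermined here.

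In brief, 8 of the 9 genes had both SS libraries above all 4 other libraries, s-themis-a being the exception. The same held for 12.5% of all 793 genes, and since the high SS level was in view when the genes were chosen, nothing is read from the count. The genes did not behave alike within the SS. All 6 dynein, radial spoke and tektin genes were 2.44 to 3.20 times higher in SS replicate 2 than in SS replicate 1, whereas dlc was level between them (0.976 times) and the s-themis genes were 1.13 and 1.43 times higher.

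**Figure D1:**
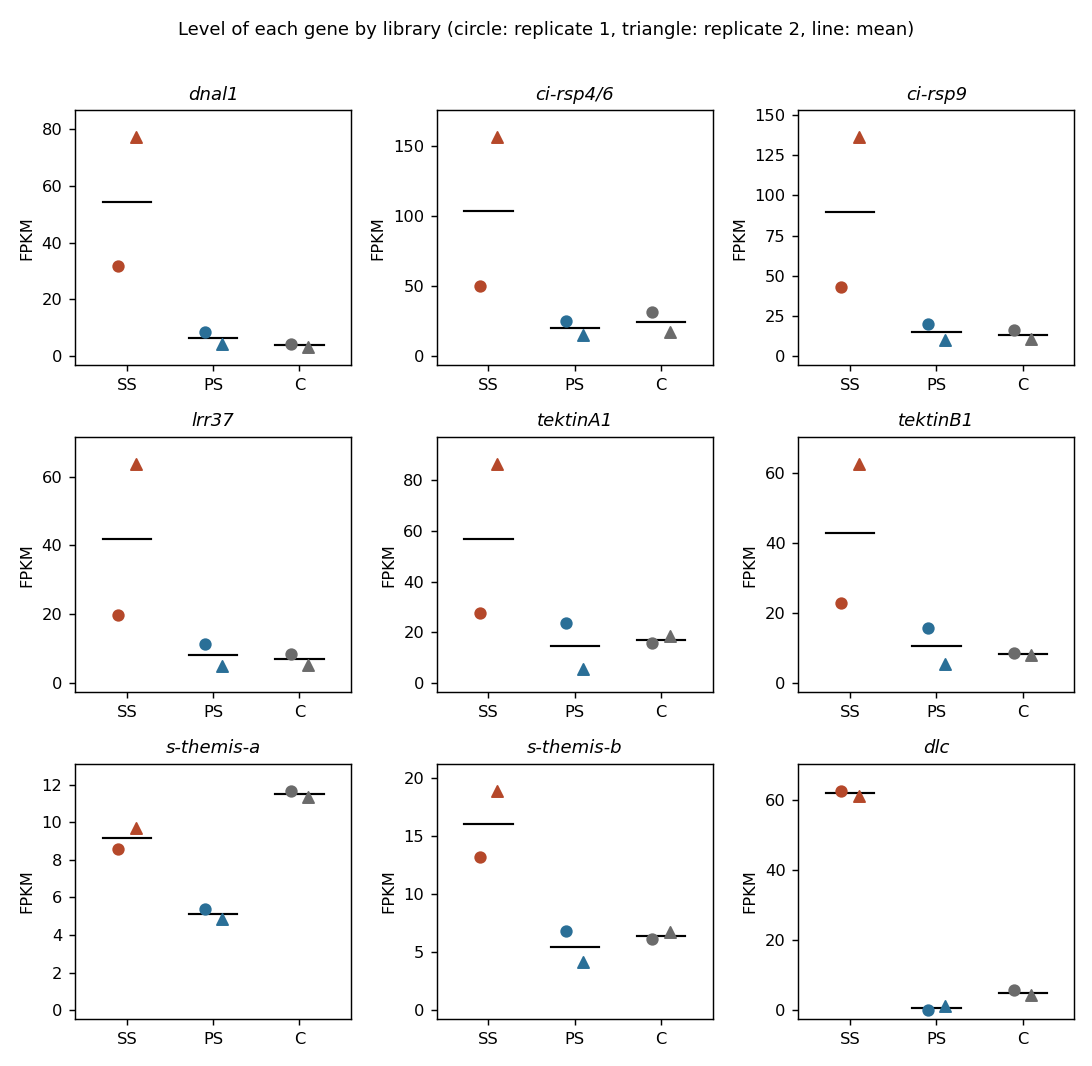
Level in FPKM (linear axis) of each of the 9 genes in the stomach blood sinus (SS), pharyngeal blood sinus (PS) and cardiac tube (C), with a circle for replicate 1, a triangle for replicate 2 and a line for the mean. In the 6 dynein, radial spoke and tektin genes the SS triangle stands far above the SS circle, and in dlc both SS libraries sit at the same level (62.6 and 61.1 FPKM).

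Among the structural genes of the axoneme, dnal1 showed the widest separation from the cardiac tube. It measured 31.7 and 77.2 FPKM in SS, 8.65 and 4.34 FPKM in PS, and 4.37 and 3.44 FPKM in C. Both SS libraries were above all others, the lower of them 3.66 times the highest PS or C library, while PS and C overlapped. The difference in log2(FPKM + 1), estimated with limma on all 6 libraries, was 3.37 ± 0.55 between SS and C and 2.82 ± 0.55 between SS and PS (SE). These levels rest on few reads, since the adjusted read values of dnal1 were 46 and 107 in SS, 12 and 6 in PS, and 6 and 5 in C.

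The radial spoke genes also had both SS libraries highest. Ci-rsp4/6, the most abundant of the 9 genes, measured 49.9 and 156 FPKM in SS, 25.1 and 15.2 FPKM in PS, and 31.7 and 17.4 FPKM in C. Ci-rsp9 measured 43.3 and 136 FPKM in SS, 20.4 and 9.92 FPKM in PS, and 16.5 and 10.6 FPKM in C. For lrr37 the levels were 19.9 and 63.7 FPKM in SS, 11.3 and 5.08 FPKM in PS, and 8.54 and 5.38 FPKM in C. In all 3 genes the PS and C libraries overlapped, and the lower SS library was 1.58 times (ci-rsp4/6), 2.13 times (ci-rsp9) and 1.77 times (lrr37) the highest library of the other parts. Between SS and C the log2 difference was 1.87 ± 0.61 for ci-rsp4/6, 2.46 ± 0.63 for ci-rsp9 and 2.24 ± 0.65 for lrr37, and between SS and PS it was 2.12, 2.35 and 2.09 for the same genes with the same standard errors.

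The tektins were less sharply separated. TektinA1 measured 27.5 and 86.4 FPKM in SS, 23.7 and 5.52 FPKM in PS, and 15.8 and 18.6 FPKM in C. TektinB1 measured 22.9 and 62.7 FPKM in SS, 15.9 and 5.59 FPKM in PS, and 8.67 and 8.19 FPKM in C. The lower SS library was only 1.16 times the highest other library for tektinA1 and 1.44 times for tektinB1, and in both genes the 2 PS libraries lay on either side of the C libraries. The log2 difference between SS and C was 1.46 ± 0.77 for tektinA1 and 2.05 ± 0.64 for tektinB1, and between SS and PS it was 1.98 and 1.89.

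The sperm receptor genes took different orders from each other. S-themis-b measured 13.2 and 18.9 FPKM in SS, 6.85 and 4.12 FPKM in PS, and 6.14 and 6.70 FPKM in C, with both SS libraries above the rest and PS overlapping C. S-themis-a measured 8.58 and 9.72 FPKM in SS, 5.37 and 4.87 FPKM in PS, and 11.7 and 11.3 FPKM in C, so that C was highest, SS intermediate and PS lowest, with no overlap between any of the parts. The log2 difference between SS and C was 1.18 ± 0.40 for s-themis-b and -0.30 ± 0.34 for s-themis-a, and between SS and PS it was 1.41 and 0.73. In SS their adjusted read values were 162 and 221 for s-themis-b and 87 and 94 for s-themis-a.

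The gene dlc, like s-themis-a, had little spread between its SS libraries and a gap between PS and C, but its highest part was SS. It measured 62.6 and 61.1 FPKM in SS, 0 and 1.13 FPKM in PS, and 5.71 and 4.32 FPKM in C, and none of the parts overlapped. The log2 difference was 3.39 ± 0.46 between SS and C. Its adjusted read values were 58 and 54 in SS, 0 and 1 in PS, and 5 and 4 in C, so that the PS level stands on a single read value above 0 and no fold is given against it. The fitted difference between SS and PS follows the pseudocount, at 5.43 with 1, 7.46 with 0.1 and 2.77 with 10, and is no measure of its size.

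**Figure D2:**
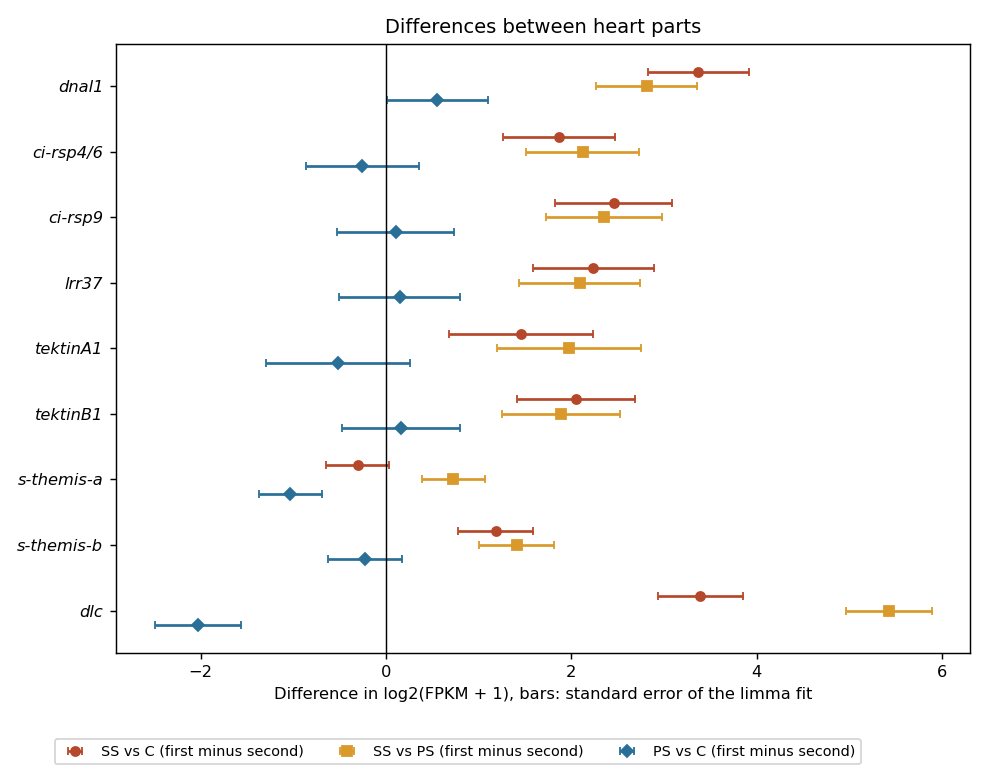
Difference in log2(FPKM + 1) between heart parts for the 9 genes, with the standard error of the limma fit. SS against C (circles) and SS against PS (squares) lie to the right of 0 throughout, except for s-themis-a between SS and C (-0.30). PS against C (diamonds) lies between -0.52 and 0.56 for all but dlc and s-themis-a.

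Over the 9 genes the median log2 difference was 2.05 between SS and C and 2.09 between SS and PS, beside 0.0198 and 0.000713 over all 793 genes. With SS replicate 2 alone these medians were 2.76 and 2.91, and with SS replicate 1 alone 1.34 and 1.27. At a Benjamini-Hochberg adjusted p under 0.05 over the whole table, the limma fit called dnal1 and dlc higher in SS than in C, 2 of 9 where 1.26% of all genes were called higher, and dlc higher in SS than in PS, 1 of 9 where 0.504% were. Both comparisons had been in view when the genes were chosen, so the counts are given for completeness and support nothing. They also moved with the libraries used. Without either SS library or either C library the calls among the 9 were lost in both comparisons. Leaving out either PS library raised the counts in both. Between SS and C it changed no log2 difference of the 9 genes. Such fits leave 1 residual degree of freedom and, without a PS library, shrink every variance fully to the trend of the fit.

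PS and C were set against each other to see whether the genes also differed at the other end of the heart. Its log2 differences do not use the SS level, although they share the C libraries with the comparison above. Its standard errors and p-values do use the SS libraries. The fit takes the spread of a gene from all 6 libraries. The shift between the SS libraries, known when the genes were chosen, therefore enters them. The largest difference was that of dlc, at -2.03 ± 0.46 (limma adjusted p = 0.0569), followed by s-themis-a at -1.03 ± 0.34 (limma adjusted p = 0.129), and in both genes PS lay below C without overlap. The size for dlc followed the pseudocount, at -3.85 with 0.1 and -0.51 with 10, and with 10 s-themis-a was as far from 0 (-0.51). For the 7 others PS and C overlapped, with log2 differences from -0.52 for tektinA1 to 0.56 for dnal1 and limma adjusted p between 0.639 and 0.931. None of the 9 genes (0) passed the adjusted threshold, where 7.44% of all genes did, and 2 had an unadjusted p under 0.05. Their median log2 difference was -0.23, beside -0.000448 over all genes, and its sign turned without PS replicate 2 (0.44) and without C replicate 1 (0.16), while without PS replicate 1 it was -0.53. With standard errors of 0.40 to 0.77 in the 7 genes, these data do not show that PS and C were alike in them.

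The call for dlc and s-themis-a turned with the fit. Without a term for the removed factor both passed as lower in PS (limma adjusted p = 0.0251 and 0.0229). Dlc also passed without PS replicate 2, at a log2 difference of -2.58. That fit leaves a lone PS library and shrinks every variance fully to the trend, so its p-value is not given. Across the alternative settings that kept all 6 libraries, the limma adjusted p ran between 0.0251 and 0.136 for dlc. For s-themis-a it ran between 0.0229 and 0.226. PS and C libraries did not overlap in 61.7% of all genes, so the lack of overlap in 2 of the 9 (22.2%) sets neither of them apart.

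The co-variation of the genes between the 2 SS libraries was then examined. On log2(FPKM + 1), SS replicate 2 exceeded SS replicate 1 by 1.63 in ci-rsp9, lrr37 and ci-rsp4/6, by 1.62 in tektinA1, by 1.41 in tektinB1 and by 1.26 in dnal1. Over all 793 genes the median of this difference was 0.0237, with quartiles of -0.17 and 0.24. A difference above 1 was found in 41 genes, or 5.17%, among them these 6 of the 9, and a difference below -1 in 8 genes. As the shift was in view when the genes were chosen, nothing is read from that count or from the ranks. Ranked from the highest, the 6 genes took places 8 (ci-rsp9), 9 (lrr37), 10 (ci-rsp4/6), 11 (tektinA1), 18 (tektinB1) and 27 (dnal1) of 793. The remaining 3 genes did not share a shift of that size, although s-themis-b moved the same way and lay above the upper quartile. S-themis-b was at 0.49 (rank 85), s-themis-a at 0.16 (rank 256) and dlc at -0.034 (rank 464).

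**Figure D3:**
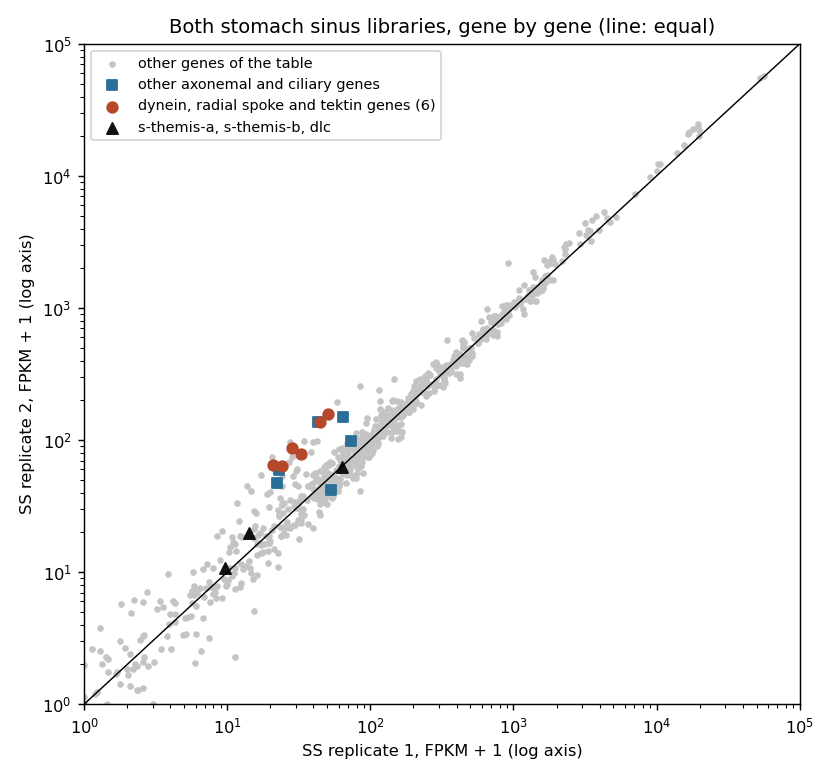
FPKM + 1 in SS replicate 2 against SS replicate 1 for all 793 genes of the table, on log axes, with a line where both are equal. The 6 dynein, radial spoke and tektin genes (filled circles) lie above the line, while dlc lies on it. Of the 6 other axonemal and ciliary genes matched by symbol patterns (squares), 5 lie above it.

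The size of the SS difference therefore depended on the library. With SS replicate 2 alone standing for the SS, the log2 difference from C was 2.68 for ci-rsp4/6, 3.27 for ci-rsp9, 3.05 for lrr37, 2.27 for tektinA1, 2.76 for tektinB1 and 4.0 for dnal1. With SS replicate 1 alone it was 1.05, 1.64, 1.42, 0.65, 1.34 and 2.74 for the same genes in that order. The direction was kept in all 6. For dlc the choice made no such difference, at 3.38 with SS replicate 2 alone and 3.41 with SS replicate 1 alone. S-themis-b gave 1.43 and 0.94, and s-themis-a -0.22 and -0.39.

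In the other parts the 6 axonemal genes ran the opposite way. PS replicate 2 was below PS replicate 1 in all 6, with a median difference of -0.99 and a range of -1.92 (tektinA1) to -0.69 (ci-rsp4/6). C replicate 2 was below C replicate 1 in 5 of the 6, with a median of -0.43, tektinA1 being higher by 0.22. The medians over all genes were -0.0238 in PS and -0.0206 in C. The tie described above gives opposite signs in PS or C to a gene that is higher in SS replicate 2, and of the 41 genes with an SS difference above 1 all 41 were lower in replicate 2 of PS or of C. The original reads of the libraries were not used here, so how much of the SS difference was present before the correction was not tested.

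**Figure D4:**
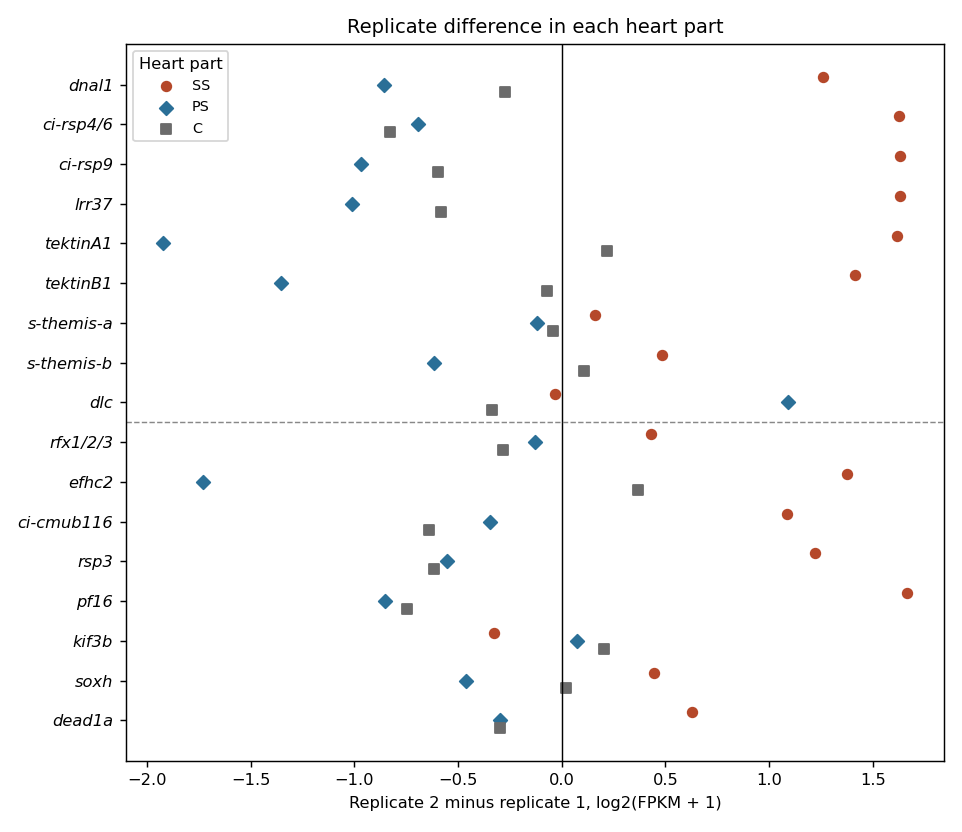
Replicate 2 minus replicate 1, in log2(FPKM + 1), in SS (circles), PS (diamonds) and C (squares), for the 9 genes above the dashed line and for 8 genes of related lists below it. The SS points of the 6 dynein, radial spoke and tektin genes lie between 1.26 and 1.63, with their PS points between -1.92 and -0.69.

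Over the 6 libraries the axonemal genes were closely matched in pattern. Among the 15 pairs of these 6 genes, Pearson's r of log2(FPKM + 1) ran from 0.839 to 0.999 with a median of 0.962. As the points share libraries, and with them the removed factor, this is a description only. Against the mean pattern of the axonemal genes, r was 0.966 for s-themis-b, 0.767 for dlc and 0.264 for s-themis-a. The last of these, high in C and without a shift between the SS libraries, was the least like the group.

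Other axonemal and ciliary genes were taken from a list of symbol patterns, which matched 6 genes outside the 9. The patterns missed some axonemal symbols of the table, among them ciaxp83.9 described below. The 6 genes therefore do not stand for all its axonemal genes. Pf16, named for a central pair protein of Chlamydomonas, measured 41.9 and 135 FPKM in SS, 31.3 and 16.9 FPKM in PS, and 31.7 and 18.5 FPKM in C. Rsp3, a radial spoke protein, measured 63.6 and 150 FPKM in SS, 51.1 and 34.5 FPKM in PS, and 47.8 and 30.8 FPKM in C. Efhc2, which encodes an EF-hand domain protein of the axoneme, measured 21.9 and 58.3 FPKM in SS, 9.66 and 2.21 FPKM in PS, and 4.46 and 6.06 FPKM in C. These 3 and ci-cmub116 had both SS libraries above the other 4 and were 2.18 to 3.23 times higher in SS replicate 2 than in SS replicate 1, as in the 6 axonemal genes.

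The other 2 genes of that list did not follow. Rfx1/2/3, named for the RFX factors that activate ciliary genes in other animals, measured 72.0 and 97.3 FPKM in SS, 82.7 and 75.6 FPKM in PS, and 87.0 and 71.2 FPKM in C, with all parts overlapping. Kif3b, named for a motor subunit that carries cargo along cilia, measured 51.8 and 41.2 FPKM in SS, 32.0 and 33.7 FPKM in PS, and 38.8 and 44.9 FPKM in C. All 6 had positive log2 differences between SS and C, with a median of 1.19, where 416 of all 793 genes had positive ones. Those of rfx1/2/3 (0.087 ± 0.23) and kif3b (0.14 ± 0.25) were smaller than their standard errors. Of the 6, 0 passed the limma adjusted threshold in any comparison. The list's summed level was 273 and 528 FPKM in SS, 221 and 174 FPKM in PS, and 228 and 183 FPKM in C.

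The lists of sperm and germline genes matched 1 gene each outside the 9, and no symbol matched the list of egg coat genes (0 matched). Spata4, named for a spermatogenesis-associated gene, is outside the lists and was picked after its values were seen. It measured 41.3 and 98.1 FPKM in SS, 28.7 and 24.0 FPKM in PS, and 43.7 and 23.4 FPKM in C, so that SS replicate 1 was not above C. The Sox family gene soxh measured 23.2 and 31.9 FPKM in SS, 4.70 and 3.14 FPKM in PS, and 3.43 and 3.49 FPKM in C. The gene dead1a, by its symbol a DEAD-box RNA helicase, measured 29.0 and 45.3 FPKM in SS, 4.03 and 3.09 FPKM in PS, and 5.51 and 4.30 FPKM in C. The fit called both higher in SS than in C and than in PS, where it called 1.26% and 0.504% of all genes higher, a difference already known when the lists were made. These calls depended on the settings. Between SS and C no gene of the table (0) was called without the variance trend of the fit or with adjusted reads. Between SS and PS none (0) was called higher with a pseudocount of 0.1. Without genes of mean FPKM under 5, only 1 gene, dlc, was called higher in SS than in PS. The calls for soxh and dead1a were also lost in both comparisons without either C library or without SS replicate 2. Between SS and C they were lost without SS replicate 1 as well. Such fits leave 1 library in that part. SS replicate 2 was 1.38 and 1.56 times SS replicate 1, nearer to s-themis-b than to the axonemal genes. As the tissue was sequenced in bulk, more cells of a kind and more RNA per cell cannot be told apart in any of these genes.

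Markers of other tissues were read in the same libraries. The 7 heart muscle genes differed by -0.19 to 0.34 between the SS libraries on log2(FPKM + 1), the 10 blood cell genes by -0.22 to 0.50, and none of either (0) exceeded 1. The 6 endostyle and pharynx genes ran from -1.04 (endostyle-specific, at 21.5 and 9.94 FPKM in SS) to 0.34. The 12 nervous system genes ran from -0.71 to 1.55, and 3 of them exceeded 1, where 5.17% of all genes did. These were gnrhr1 (0.295 and 2.79 FPKM in SS), gnrhr2 (2.88 and 8.68 FPKM) and gnrh1 (11.1 and 23.3 FPKM). Of the 5 digestive tract genes, only gh18 exceeded 1. It measured 25.9 and 67.3 FPKM in SS, 11.8 and 5.91 FPKM in PS, and 32.2 and 23.6 FPKM in C. Its replicate ratio of 2.6 is within the range of the 6 axonemal genes. Ciap, the other gene that the study associates with digestion, was level between the SS libraries at 130 and 133 FPKM, against 101 and 128 FPKM in PS and 92.7 and 73.8 FPKM in C. The summed level of the digestive list was 341 and 388 FPKM in SS, 317 and 327 FPKM in PS, and 323 and 298 FPKM in C. The part of neighboring tissue in the SS levels was not tested.

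Across the 771 other genes with a mean of at least 1 FPKM, the 10 whose pattern over the 6 libraries was most like the mean standardized pattern of the 9 genes had r between 0.972 and 0.998, and all 10 had both SS libraries above the rest, which follows from choosing them by likeness to genes high in SS. Ciaxp83.9, by its symbol a Ciona axonemal protein, came first, at 253 and 319 FPKM in SS, 186 and 151 FPKM in PS, and 194 and 187 FPKM in C. It was followed by ic1, ci-morn40, ci-ndk/dm44, zf(c3h/ring)-1, pf-rib, LOC100183762, ci-arm37, LOC100184380 and tgfbr-ib. Likeness in pattern did not mean likeness in size. SS exceeded C by 1.34 times in zf(c3h/ring)-1 and 1.39 times in tgfbr-ib, but by 2.47 times in ic1, 4.57 times in ci-morn40 and 4.76 times in ci-arm37. Between the SS libraries the ratio was 1.11 in zf(c3h/ring)-1, 1.90 in ic1, 2.70 in ci-morn40 and 2.91 in pf-rib.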

How the data were processed

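Bulk RNA-seq libraries (6 in all, 2 per heart part) were analysed from 1 deposited table of 793 genes. How these were selected from all genes is not given in the sources used here, and p-values were adjusted over them. Adapter trimming (cutadapt), alignment to genome ci3 (STAR), gene counting (featureCounts of Subread) and an RUVs correction for 1 factor within DESeq2 were done by the authors, as their methods state. The deposited columns headed raw hold whole numbers tied between replicates, and were treated as a score (adjusted reads). They summed to 1412759 to 1950483 per library over the listed genes. FPKM values were also deposited by the authors, after the same correction. Read depth is unknown, and no counting interval is given. The deposited log2 fold changes, p-values and group means were not used.

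On log2(FPKM + 1), differences were estimated by limma (version 3.58.1, under R 4.3.3) from all 6 libraries, with a term for the removed factor and a variance trend, at an adjusted p of 0.05 without a filter, leaving 2 residual degrees of freedom. The fit was tested on simulated data. Where a library was left out, the factor was set to 0 for its lone partner, so that it moved no group mean. The 9 genes, the lists and the fit were chosen with earlier results of these data known. Named genes were the 9, list members and the 10 most similar genes of mean FPKM of at least 1. Spata4, hsp40, rbdlc, ci-ak58, sfrp2 and evx-a were named in addition, after their values were seen. None of the symbols matched the RefSeq table of assembly ASM961781v2 (0 matched), so no sequence or coordinate is printed, and whether near-identical copies share reads was not tested.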

Additional observations from a re-analysis of the deposited data

How the results depend on the processing

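Between SS and C the fit called 13 genes of the table, and 2 with a pseudocount of 0.1 or 10, 26 without genes of mean FPKM under 5, 113 without the factor term, and 0 without the trend or with adjusted reads. Of the 9 genes it called 2, and 1 with a pseudocount of 10 and 0 with a pseudocount of 0.1, without the trend or with adjusted reads. Between PS and C it called 59, and 151 without the factor term and 13 without the trend, with 0 of the 9 and 2 without the factor term. Between SS and PS it called 10, and 2 with a pseudocount of 0.1, 3 without genes of mean FPKM under 5 and 33 without the factor term, with 1 of the 9, 0 with a pseudocount of 0.1 and 2 without the factor term. Leaving out 1 library gave 0 to 92 genes between SS and C (0 to 7 of the 9), 0 to 81 between PS and C (0 to 1 of the 9) and 0 to 58 between SS and PS (0 to 7 of the 9). These fits leave 1 residual degree of freedom, assume that the lone library varies like the others, and without a PS library shrink every variance fully to the trend. All SS differences of the 9 genes kept their sign. Between PS and C, leaving out 1 library reversed the sign of 6 genes. Over the fits without 1 library their log2 differences ran from -0.38 to 0.59 (ci-rsp9), -0.36 to 0.65 (lrr37), -0.52 to 0.84 (tektinB1), -0.67 to 0.16 (ci-rsp4/6), -1.48 to 0.44 (tektinA1) and -0.53 to 0.081 (s-themis-b). The libraries concerned were PS replicate 1 (ci-rsp9, lrr37, tektinB1), PS replicate 2 (ci-rsp4/6, tektinA1, s-themis-b), C replicate 1 (ci-rsp4/6) and C replicate 2 (ci-rsp9, lrr37). The cause was not tested.

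Whether same-numbered libraries came from the same hearts is not stated, and the numbers were not taken as a pairing. Across genes, the replicate differences of different parts correlated at -0.46 (SS and PS), -0.54 (SS and C) and -0.46 (PS and C), after the correction. With a replicate block in place of the factor term, 13, 61 and 10 genes were called in the 3 comparisons, and 2, 0 and 1 of the 9 genes, so no count moved by over 1.5 times.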

Other observations

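Of the 41 genes that exceeded 1 in the difference between SS replicate 2 and SS replicate 1, 35 were not among the 9. These were looked up after their values were seen. Hsp40, named for a chaperone family, measured 57.7 and 192 FPKM in SS, 49.1 and 17.3 FPKM in PS, and 49.1 and 40.2 FPKM in C, and rbdlc measured 83.0 and 254 FPKM in SS, 81.2 and 40.2 FPKM in PS, and 82.1 and 54.6 FPKM in C. Ci-ak58 measured 26.3 and 95.1 FPKM in SS, 28.7 and 9.20 FPKM in PS, and 24.2 and 19.8 FPKM in C, so that its SS replicate 1 was not above the other parts.

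The Wnt antagonist gene sfrp2 measured 16.2 and 53.6 FPKM in SS, 21.5 and 4.13 FPKM in PS, and 9.24 and 12.7 FPKM in C, and the homeobox gene evx-a 18.0 and 38.2 FPKM in SS, 11.2 and 12.9 FPKM in PS, and 7.30 and 3.07 FPKM in C. Of the 41 genes, 25 had both SS libraries above the other 4 and 16 did not.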
